A study of Rattus norvegicus with 18 samples.

Results

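Transcripts of potassium channel genes were measured in rat hippocampus, as the probe sets of an Affymetrix array whose only platform symbol starts with Kcn. This choice took 73 genes with 108 probe sets, of 10412 genes and 15923 probe sets on the array. The rule reads only symbols and no measured value, but it was set with earlier results of these data known. Where a gene had several probe sets, the one of highest mean signal stands for it. 51 of the 73 genes had 1 probe set and 22 had more. The series title names fetal alcohol exposure and learning disability, and the 18 samples are total RNA of whole hippocampus on 1 array each. The groups are alcohol diet with CFC training (4 arrays), alcohol diet naive (4), isocaloric diet with CFC training (4), isocaloric diet naive (2), control diet with CFC training (2) and control diet naive (2). An isocaloric diet supplies the same calories without alcohol. CFC is not spelled out in the labels, and strain, sex, age, dose and the time from training to tissue collection are not given in the sources used here. The labels do not say that samples of a group came from separate animals or litters. The p-values set a group difference only against the spread of these samples within groups, and that spread may be technical. In whole tissue, fewer cells of a type and less RNA per cell cannot be told apart.

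Potassium channels let potassium ions leave the cell, which returns the membrane to rest after an action potential and sets how readily a neuron fires again. The family holds voltage-gated pores (Kv, EAG and related channels), calcium-activated and sodium-activated pores, inward rectifiers (Kir), leak channels with tandem pore domains (K2P), and accessory subunits that set the gating and traffic of these pores. In the hippocampus, channels of the Kv1 family act along axons, Kv4 channels with their KChIP subunits carry the transient current of dendrites, and Kv7 channels carry the M-current. Ethanol is known to act directly on the BK channel and on G-protein-gated Kir channels. Such an action on a protein is not seen by an array, which measures transcripts.

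Promoters are shown for 3 genes that differed between diets below, Kcnip2 and Kcnip3 (higher with alcohol) and Kcnma1 (lower), so that their base composition can be compared. Each is the run of 250 bases before the gene's RefSeq start in the rat build GRCr8, 5′ to 3′ on the gene's own strand, and capitals mark every match of the GC box GGGCGG on either strand. Kcnip2 lies at chr1:254613899-254614148 on the minus strand, Kcnip3 at chr3:135195411-135195660 on the minus strand, and Kcnma1 at chr15:351675-351924 on the plus strand.
Kcnip2: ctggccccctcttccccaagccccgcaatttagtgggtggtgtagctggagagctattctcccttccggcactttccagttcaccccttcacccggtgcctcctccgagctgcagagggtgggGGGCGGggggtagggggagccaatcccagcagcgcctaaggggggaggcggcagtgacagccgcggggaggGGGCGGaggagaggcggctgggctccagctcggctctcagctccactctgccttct
Kcnip3: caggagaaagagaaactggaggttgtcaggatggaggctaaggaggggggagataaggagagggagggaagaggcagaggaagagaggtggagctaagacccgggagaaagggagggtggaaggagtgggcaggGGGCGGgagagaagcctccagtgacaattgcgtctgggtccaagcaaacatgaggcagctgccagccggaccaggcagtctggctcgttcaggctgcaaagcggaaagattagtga
Kcnma1: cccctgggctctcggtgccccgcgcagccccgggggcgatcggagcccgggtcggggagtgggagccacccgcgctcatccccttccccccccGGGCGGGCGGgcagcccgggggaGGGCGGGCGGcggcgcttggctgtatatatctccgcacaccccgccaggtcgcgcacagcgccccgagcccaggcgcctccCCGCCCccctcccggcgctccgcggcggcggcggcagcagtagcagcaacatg
The Kcnip2 window holds 2 matches, that of Kcnip3 holds 1 and that of Kcnma1 holds 5, of which some overlap each other. The RefSeq table held such a window for 50 of the 73 genes, with none for Kcna1 and Kcnq3. GGGCGG was found in 28 of the 50 (56.0%) and in 32.4% of all 27457 promoters of that length. The median GC content was 63.4% in the 50 windows and 52.0% over all. The cyclic AMP response element TGACGTCA, searched on both strands, was found in 0 of the 50 against 1.70% of all. The E-box letters CACGTG were found in 1 (2.0%) against 5.79% of all. The TATA box letters TATAAA, again on both strands, were found in 2 (4.0%) against 13.1%. These are descriptions of letters in a window, with no test.

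Of the 73 genes, 35 passed the filter on low values and 38 did not. The filter is a mean log2(signal + 6.06) of 5.78 over the 18 arrays, which corresponds to a signal of about 49.0 array units, so a gene with uneven signals can have an arithmetic mean above that and still fall under it. The mean signal of the 35 ran from 50.1 to 717 with a median of 125, and that of the 38 from 1.70 to 49.4 with a median of 24.3. Signals of different probe sets are not set against each other, because each probe set has its own binding strength. The tested genes were Kcna1, Kcna2 and Kcna4 of the Kv1 family, Kcnc1, Kcnc2 and Kcnc4 of Kv3, Kcnd1, Kcnd2 and Kcnd3 of Kv4, Kcnq3 of Kv7, Kcnh1, Kcnh2 and Kcnh3 of the EAG, ERG and ELK group, the electrically silent subunits Kcng2, Kcng3, Kcns3 and Kcnv1, and Kcnma1 and Kcnt1, the BK and sodium-activated pores. With them were Kcnj3, Kcnj4, Kcnj6, Kcnj9, Kcnj10, Kcnj11 and Kcnj16 of the inward rectifiers, Kcnk1, Kcnk2 and Kcnk6 of the K2P channels, and the accessory subunits Kcnab1, Kcnab2, Kcnip2, Kcnip3, Kcnip4 and Kcnmb4. Kcng3, Kcnh2 and Kcnj9 passed although their control-diet mean lay under the filter level, through the other diets. So did the second probe sets 1387689_at of Kcnab2 and 1387421_at of Kcnip3. They were therefore tested where they are high, and their rises are read with that limit.

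Within groups, arrays correlated at 0.965 to 0.982, total signal ranged from 2.92e+06 to 3.13e+06, and 0 pairs of arrays were identical. MAS5 is named for control naive replicate 1 and control trained replicate 2 alone. On these 2 arrays 100% of the values had at most 6 digits, against 3.10% to 3.67% on the others. Counts from fits without these 2 arrays are given below. Such fits leave a lone array in each control group, so they cannot settle what this difference does to comparisons with control. Control naive replicate 2 held the lowest signal of all 18 arrays for 13 of the 35 tested channel genes and the highest for 3, while over all tested probe sets it was lowest for 20.5% and highest for 17.2%. The log2 ratio of 3′ to 5′ actin signal, a sign of RNA length, was 0.54 to 0.73 on the control arrays, 0.19 to 0.67 on the alcohol arrays and 0.32 to 0.51 on the isocaloric arrays. The same ratio for Gapdh was 0.19 to 0.36 on the control arrays, 0.09 to 0.48 on the alcohol arrays and 0.06 to 0.18 on the isocaloric arrays. Summed signal of 10 endothelial and mural markers was 371 to 545 on control arrays, 866 to 1015 on alcohol arrays and 861 to 926 on isocaloric arrays, and all 5 of those tested (Cldn5, Flt1, Esam, Rgs5 and Slco1a4) were higher than control in both other diets. The summed signal of 5 dentate granule cell markers was 720 to 807 on control arrays, 575 to 749 on alcohol arrays and 630 to 747 on isocaloric arrays, and neither of the 2 tested passed in any of the 3 diet comparisons. For 9 neuronal markers the sums overlapped between diets, at 11674 to 14436 with alcohol, 12629 to 13205 with the isocaloric diet and 11219 to 12777 with control, and for 8 markers of pyramidal cells they ran from 3720 to 4611, 3932 to 4343 and 3623 to 4409 in the same order. Single markers differed all the same: of the 9 neuronal and 7 pyramidal markers tested, Syp (0.18) and Homer3 (0.71) were higher with alcohol than with control on the log2 scale, and of 8 interneuron markers Gad2 was higher than control with alcohol (0.47) and with the isocaloric diet (0.50). Hbb, the 1 blood marker tested, was lower than control in both (-0.56 and -0.50). Of 9 astrocyte markers Aqp4 was lower with alcohol than with control (-0.28), Slc1a3 lower with the isocaloric diet than with control (-0.36) and Aldoc higher with alcohol than with the isocaloric diet (0.36). The oligodendrocyte marker Cldn11 was lower with alcohol (-0.29) and the microglial marker C1qa with the isocaloric diet (-0.52), both against control. The summed signal of 9 microglial markers was 1029 to 1155 on isocaloric arrays, 1164 to 1320 on alcohol arrays and 1165 to 1615 on control arrays. Of the 7 tested, 0 passed between alcohol and isocaloric. The part of these differences in the channel results was not tested.

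With the alcohol diet, 11 of the 35 tested channel genes differed from the control diet. 9 were higher, Kcna1, Kcnq3, Kcnip2, Kcnip3, Kcnj11, Kcnj9, Kcng3, Kcnc4 and Kcnh3, and 2 were lower, Kcnma1 and Kcnv1. The largest rise was that of Kcna1, the pore of axonal low-threshold channels, at 1.77-fold, and the falls of Kcnma1 and Kcnv1 were both to 0.746 of control. Over all 9520 probe sets tested, 19.9% passed in this comparison, 11.3% higher and 8.61% lower, against 31.4% of the channel genes. The median log2 difference was 0.15 over the 35 channel genes and -0.00 over all probe sets, and 25 of the 35 had a positive sign. Ranges of the alcohol and control arrays did not overlap for 4 of the 35 (Kcnma1, Kcnq3, Kcnip2 and Kcnj11), or 11.4%, and for 6.38% of all probe sets tested. Without Kcng3, Kcnh2 and Kcnj9, the 3 genes whose control mean lay under the filter level, 9 of 32 passed (28.1%), 7 higher and 2 lower. The count over the 35 rests on the 4 control arrays: it was 17 without control naive replicate 1, 4 without control naive replicate 2, 7 without control trained replicate 1 and 5 without control trained replicate 2. With the actin ratio as a covariate it was 3 (Kcna1, Kcnma1 and Kcnj11).

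**Figure D1:**
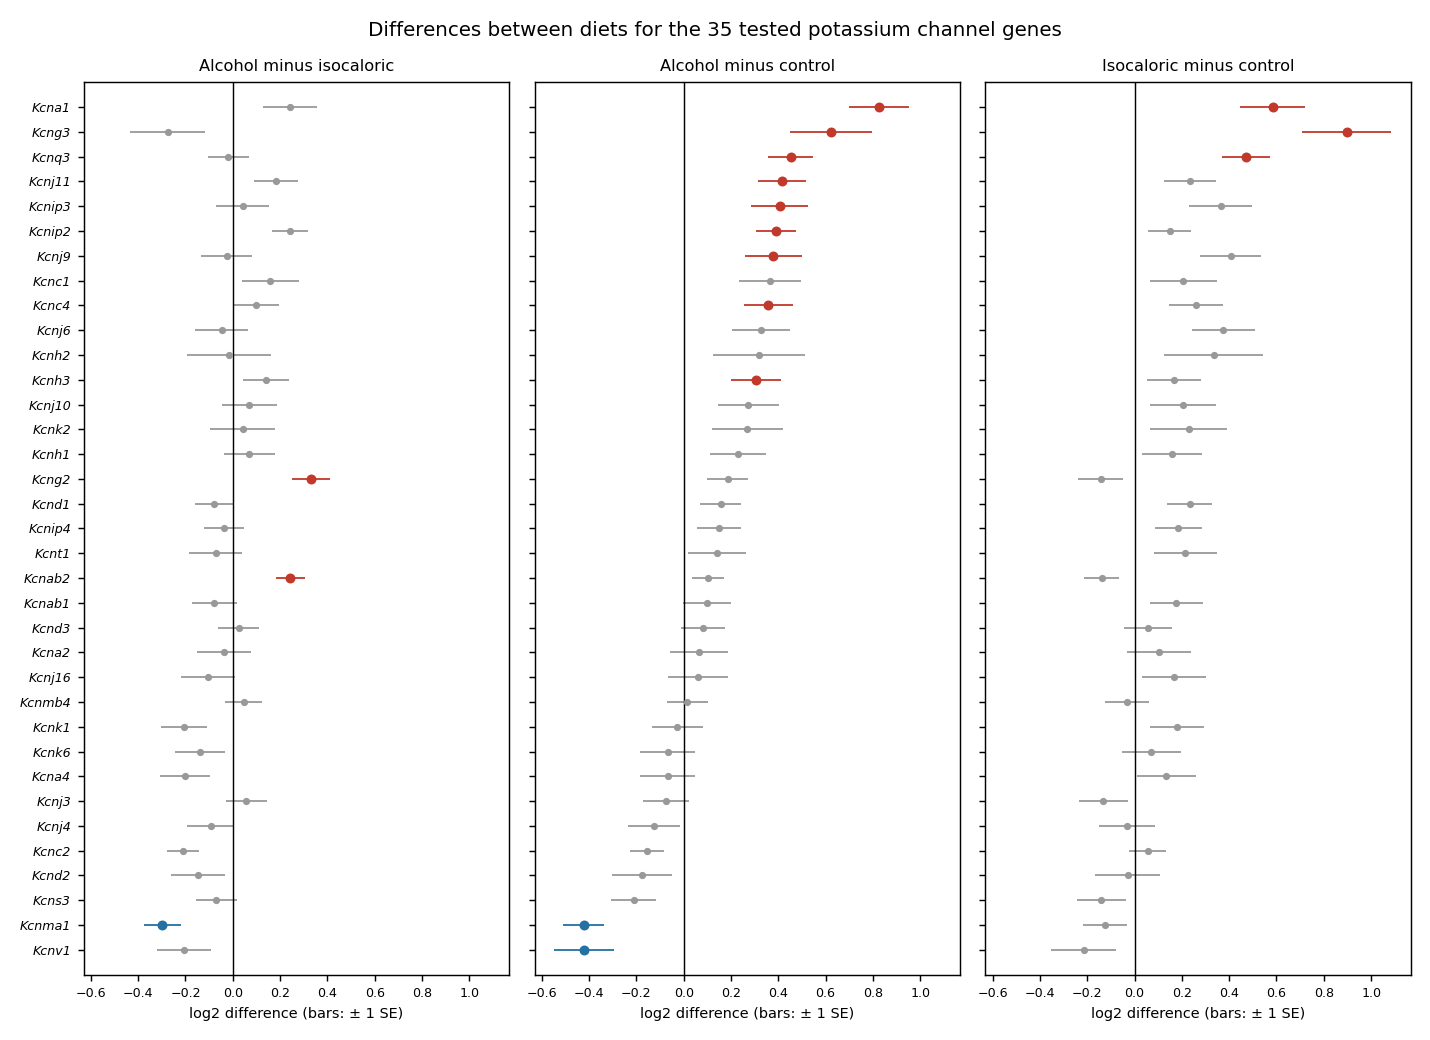
Difference between diets for the 35 tested potassium channel genes, averaged over trained and naive rats, on the log2(signal + 6.06) scale (horizontal axis; bars are 1 SE from limma). Red points were higher and blue points lower at an adjusted p under 0.05, and grey points did not pass. 3 genes passed in alcohol minus isocaloric, 11 in alcohol minus control and 3 in isocaloric minus control.

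Among the pores of the Kv1 family, Kcna1 (probe set 1370545_at) gave a signal of 267 and 132 on the control naive arrays and 197 and 205 on the control trained arrays. On the 8 alcohol arrays its signal was 248 at lowest, 346 at the median and 418 at highest, and on the 6 isocaloric arrays 265, 297 and 338. All 8 alcohol arrays lay above the control mean of their own training state, and the ranges overlapped because control naive replicate 1 (267) lay above the lowest alcohol array. The log2 difference, alcohol minus control, was 0.83 (SE 0.13, adjusted p = 0.000479, limma), and it passed in each of the 33 alternatives run, at 0.58 to 1.09. Kcna2, another Kv1 pore, differed by 0.06 and Kcna4, an A-type Kv1 pore, by -0.07, and neither passed.

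Kcnab2 encodes a cytoplasmic beta subunit that binds Kv1 pores and helps carry them to the axon, and its 2 tested probe sets gave different results. Probe set 1387689_at had control signals of 93.0 and 38.9 (naive) and 62.6 and 19.6 (trained). Its signal with alcohol was 108 at lowest, 172 at the median and 207 at highest, so that no alcohol array overlapped the control range. The log2 difference was 1.65 (SE 0.25, adjusted p = 0.000479), a 3.14-fold rise, and it passed in all 32 alternatives. The control-diet mean of this probe set lay under the filter level, so its rise carries the filter limit given above. The call held with no filter on low values, where its level played no part in its being tested. Probe set 1390674_at, the one with the higher mean, gave 747 and 842 (control naive), 615 and 659 (control trained) and 645, 767 and 913 with alcohol as lowest, median and highest. These ranges overlapped, and the difference of 0.10 (SE 0.07, adjusted p = 0.295) did not pass. It averages unlike values, since the mean signal was 834 ± 74.4 (SD, n = 4) with alcohol against 637 ± 31.1 (SD, n = 2) with control in trained rats, and 704 ± 60.2 (SD, n = 4) against 794 ± 67.2 (SD, n = 2) in naive rats. Whether the diet difference depends on training was not tested for these diets. Which transcripts of Kcnab2 each probe set binds was not analysed here. Kcnab1, the other tested beta subunit, differed by 0.10 and did not pass.

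Kcnq3, a pore subunit of the M-current that holds back repetitive firing, had signals of 97.9 and 84.3 (control naive) and 115 and 98.5 (control trained). With alcohol its signal was 126 at lowest, 135 at the median and 152 at highest. Each alcohol array lay above each control array. The log2 difference was 0.45 (SE 0.09, adjusted p = 0.00376), and it stayed past the threshold when any single array was left out, at 0.40 to 0.50. It did not pass with the actin ratio as a covariate (0.40, adjusted p = 0.102) or when all probe sets of the gene, dim ones included, were averaged (0.24, adjusted p = 0.270).

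The KChIP genes encode calcium-binding subunits of the Kv4 channels, and 2 of the 3 tested rose. Kcnip2 (1373987_at) gave 533 and 393 on the control naive arrays and 522 and 509 on the control trained arrays, against 543, 648 and 707 as lowest, median and highest with alcohol. The groups did not overlap, though the lowest alcohol array lay close to the highest control array. The difference was 0.39 (SE 0.08, adjusted p = 0.00439). A second probe set of Kcnip2 (1370773_a_at) gave 154 and 101, then 104 and 111, against 163, 196 and 254, again with no overlap, and a difference of 0.73 (SE 0.11, adjusted p = 0.000492). With the actin ratio as a covariate these became 0.27 (adjusted p = 0.176) and 0.53 (adjusted p = 0.0519).

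Kcnip3, a KChIP also known as the transcriptional repressor DREAM, gave 320 and 224 (control naive) and 344 and 254 (control trained) at 1376225_at, and 288, 367 and 480 with alcohol. 7 of 8 alcohol arrays lay above the control mean of their training state, the ranges overlapped, and the difference was 0.41 (SE 0.12, adjusted p = 0.0269). It did not pass without control naive replicate 2 (0.28, adjusted p = 0.211) or control trained replicate 2 (0.30, adjusted p = 0.158). Its second probe set (1387421_at) gave 47.1, 41.6, 27.5 and 43.3 on the control arrays in the same order and 61.6, 84.3 and 96.5 with alcohol. There the groups did not overlap, and the difference of 0.93 (SE 0.15, adjusted p = 0.000587) passed in all 31 alternatives. The control-diet mean of this second probe set lay under the filter level, so its rise carries the filter limit given above. Its call held with no filter on low values. Kcnip4 differed by 0.15 and did not pass, nor did the Kv4 pores Kcnd1, Kcnd2 and Kcnd3, which ranged from -0.18 to 0.16.

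**Figure D2:**
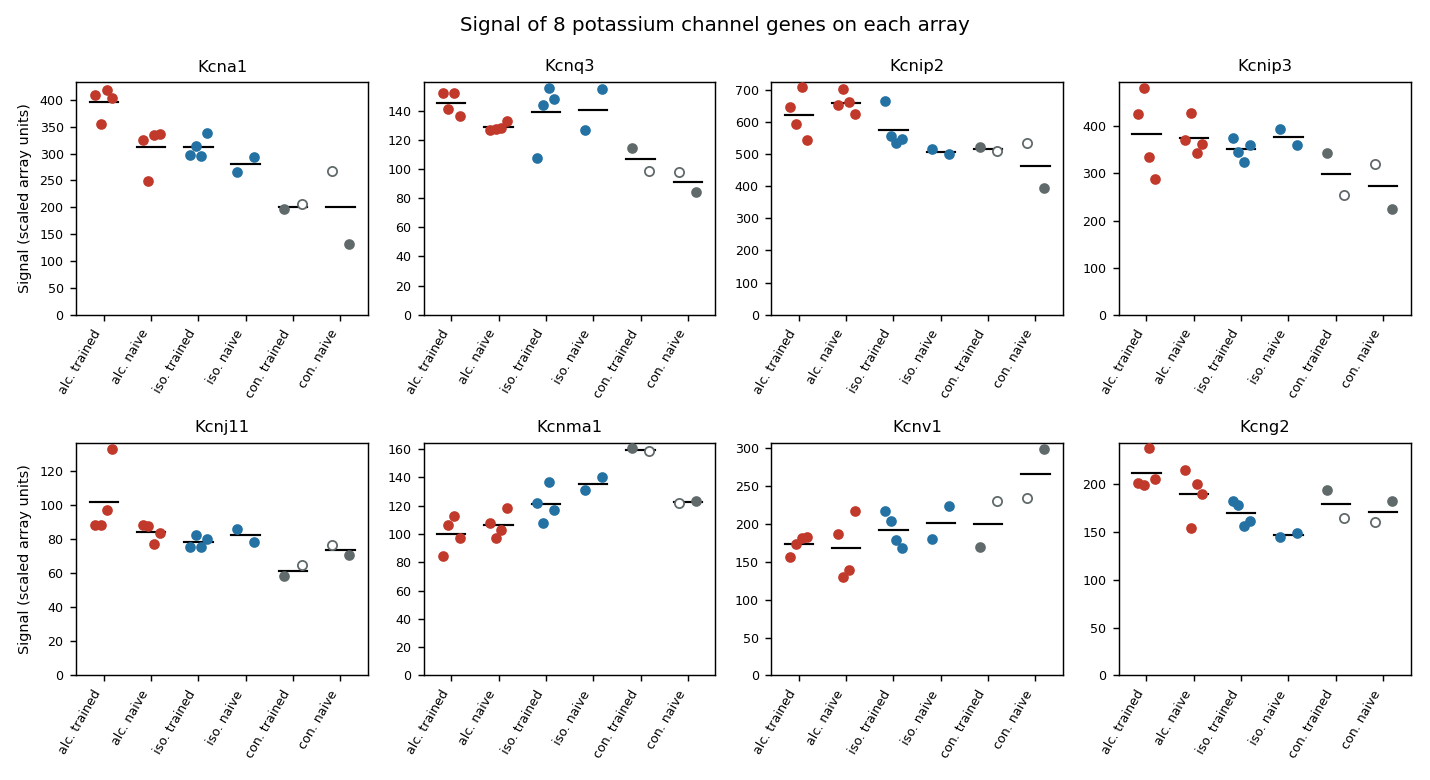
Signal in scaled array units (vertical axis, from 0) of 8 potassium channel genes on each of the 18 arrays, by diet (alc. alcohol, iso. isocaloric, con. control) and training. Points are arrays, lines are group means, and open circles are the 2 control arrays for which MAS5 is named. Kcna1 on the control arrays lies at 132 to 267 and on the alcohol arrays at 248 to 418, while for Kcnma1 the alcohol arrays, at 84.7 to 118, lie below the control arrays and overlap the isocaloric arrays.

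Kcnma1, the pore of the large-conductance calcium-activated (BK) channel, was lower with alcohol than with either other diet. Its signal was 121 and 123 on the control naive arrays and 160 and 159 on the control trained arrays, and 84.7, 104 and 118 with alcohol. With the isocaloric diet it was 108, 126 and 140. No alcohol array reached the control range. The difference from control was -0.42 (SE 0.09, adjusted p = 0.00348) and it passed in all 32 alternatives, at -0.50 to -0.35. It averages unlike values. The mean signal in trained rats was 100 ± 12.1 (SD, n = 4) with alcohol. With control it was 159 ± 1.23 (SD, n = 2). In naive rats it was 106 ± 8.99 (SD, n = 4) against 122 ± 1.33 (SD, n = 2). Whether the diet difference depends on training was not tested for these diets. The difference from the isocaloric diet, given below, was less firm. Its ranges overlapped, and it passed in 13 of 32 alternatives. Kcnmb4, the neuronal beta subunit of this channel, gave a mean signal of 389 ± 41.8 (SD, n = 8) on alcohol arrays. On control arrays it gave 384 ± 37.8 (SD, n = 4), a difference of 0.02 that did not pass.

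The electrically silent subunits form no channel alone and alter Kv2 pores, and among the 4 tested Kcng3 rose, with the filter limit given above, and Kcnv1 fell. Kcng3 gave 51.2 and 20.9 (control naive) and 37.6 and 32.7 (control trained), and 46.6, 54.2 and 76.1 with alcohol. The ranges overlapped through control naive replicate 1, and control naive replicate 2 was the lowest array. The difference was 0.62 (SE 0.17, adjusted p = 0.0188; adjusted p = 0.0386 with no filter on low values, where its level played no part in its being tested), and it was 0.35 without control naive replicate 2 (adjusted p = 0.199) and 0.58 without control trained replicate 2 (adjusted p = 0.0746). Kcnv1 gave 234 and 299, then 169 and 230, against 130, 177 and 217 with alcohol. All 8 alcohol arrays lay below the control mean of their training state, but control trained replicate 1 (169) lay within the alcohol range. The difference was -0.42 (SE 0.13, adjusted p = 0.0265), and it was -0.34 without control naive replicate 2 (adjusted p = 0.173) and -0.31 without control trained replicate 2 (adjusted p = 0.153).

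Of the other silent subunits, Kcns3 differed by -0.21 and Kcng2 by 0.19 at its probe set of highest mean, and neither passed. A second probe set of Kcng2 (1390473_at) gave 79.7, 75.4, 64.1 and 44.7 on the control arrays (naive, then trained) and 62.8, 88.8 and 118 with alcohol. These ranges overlapped, and the difference of 0.40 (SE 0.14, adjusted p = 0.0488) passed in 8 of 31 alternatives. It did not pass when any of 15 of the 18 arrays was left out, and was 0.28 without control trained replicate 2.

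In the Kv3 family, whose pores serve fast repolarisation, 1 of 3 tested genes rose. Kcnc4 gave 292 and 179 (control naive) and 239 and 228 (control trained), and 255, 291 and 399 with alcohol. The ranges overlapped through control naive replicate 1. The difference of 0.36 (SE 0.10, adjusted p = 0.0235) was 0.19 without control naive replicate 2 (adjusted p = 0.229), and was 0.37 and 0.34 without control trained replicate 1 or 2 (adjusted p = 0.0652 and 0.0808). Kcnc1 differed by 0.37 with a larger error and Kcnc2 by -0.16, and neither passed. In the EAG, ERG and ELK group, Kcnh3, an ELK pore of forebrain neurons, gave 312 and 274, then 247 and 243, against 278, 326 and 489 with alcohol. 6 of 8 alcohol arrays lay above the control mean of their training state. The mean signal of Kcnh3 in trained rats was 372 ± 80.5 (SD, n = 4) with alcohol. With control it was 245 ± 2.71 (SD, n = 2). In naive rats it was 303 ± 26.9 (SD, n = 4) against 293 ± 27.1 (SD, n = 2). Its difference of 0.31 (SE 0.11, adjusted p = 0.0499) passed in 6 of 33 alternatives and was lost when any of 14 of the 18 arrays was left out, at 0.24 to 0.35 over all 18. Kcnh1 and Kcnh2 differed by 0.23 and 0.32 and did not pass.

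Among the 7 tested inward rectifiers, Kcnj11 rose, and Kcnj9 rose with the filter limit given above. Kcnj11, the pore of the ATP-sensitive channel, gave 76.8 and 70.9 (control naive) and 58.3 and 64.8 (control trained) at 1369782_a_at, and 77.4, 88.5 and 133 with alcohol. The groups met without overlapping. The difference of 0.42 (SE 0.10, adjusted p = 0.00918) was 0.39 without control naive replicate 2 (adjusted p = 0.0577) and 0.38 without control trained replicate 1 (adjusted p = 0.0520). A second probe set (1391007_s_at) gave 80.5, 44.7, 42.4 and 38.1 on the control arrays and 65.4, 81.8 and 134 with alcohol. Its ranges overlapped, and its difference of 0.70 (SE 0.17, adjusted p = 0.00956) was 0.51 without control naive replicate 2 (adjusted p = 0.102). The remaining tested probe set (1387698_at) differed by 0.07 and did not pass.

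Kcnj9, a G-protein-gated subunit, gave 44.1 and 31.2 (control naive) and 38.2 and 44.5 (control trained), and 44.3, 54.1 and 66.0 with alcohol. The ranges overlapped by a small margin. The difference was 0.38 (SE 0.12, adjusted p = 0.0327). It did not pass with no filter on low values (adjusted p = 0.0608), and it was lost when alcohol trained replicate 2, alcohol naive replicate 3 or 4, control naive replicate 2 or either control trained array was left out. The lowest of these values was 0.27, without control naive replicate 2 (adjusted p = 0.220). The partner subunits Kcnj3 and Kcnj6 differed by -0.07 and 0.33, and the glial Kir genes Kcnj10 and Kcnj16 by 0.27 and 0.06. None of these 4 passed, nor did Kcnj4 (-0.13). The K2P genes Kcnk1, Kcnk2 and Kcnk6 ranged from -0.07 to 0.27 and Kcnt1 was at 0.14, none past the threshold.

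**Figure D3:**
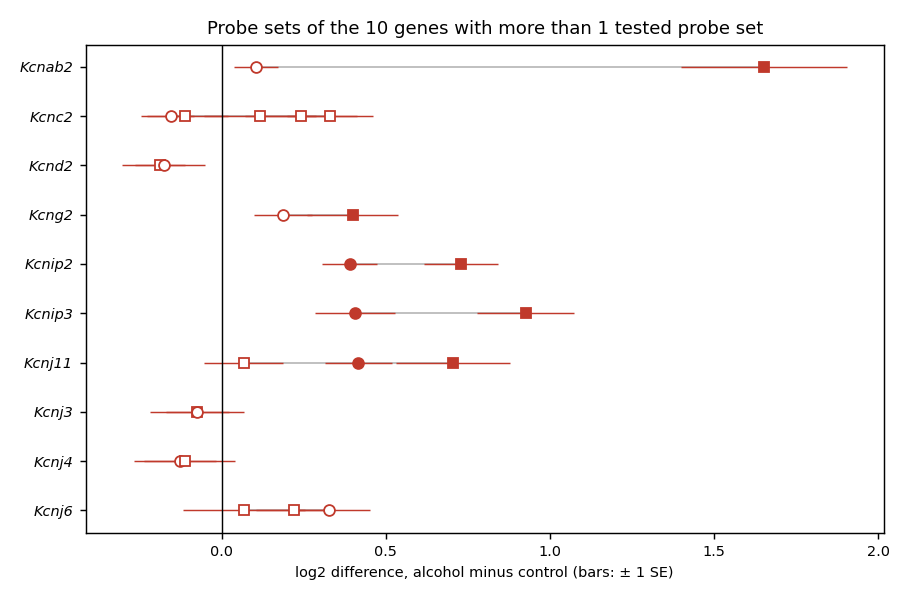
Alcohol minus control on the log2(signal + 6.06) scale for each tested probe set of the 10 channel genes with more than 1 (circles: the probe set of highest mean; squares: others; filled: adjusted p under 0.05; bars are 1 SE). The signs were shared in 9 of the 10 genes, Kcnc2 being the exception, and the sizes differed most for Kcnab2, at 0.10 and 1.65.

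The alcohol and isocaloric diets differed for 3 of the 35 channel genes (8.57%), where 3.06% of all 9520 probe sets passed, 1.47% higher and 1.59% lower. Kcng2 and Kcnab2 were higher with alcohol and Kcnma1 lower, and each of the 3 had overlapping ranges. The median log2 difference of the 35 was -0.03, against -0.02 over all probe sets, and it became 0.03 after quantile normalisation and 0.05 after median centring. The split of calls was 2 higher and 1 lower, 2 and 0 after quantile normalisation, and 3 and 0 after median centring. The count was 0 to 6 when single arrays were left out, and it was 0 in a fit without the 4 arrays highest in Ttr or with the Gapdh ratio as a covariate.

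Kcng2, a silent subunit, gave 154 at lowest, 201 at the median and 238 at highest on the 8 alcohol arrays and 144, 159 and 182 on the 6 isocaloric arrays. All 8 alcohol arrays lay above the isocaloric mean of their training state. The difference was 0.33 (SE 0.08, adjusted p = 0.0355), and it was 0.16 and not past the threshold when the gene's probe sets were averaged (adjusted p = 0.344). Kcnab2 at 1390674_at gave 645, 767 and 913 with alcohol and 625, 634 and 703 with the isocaloric diet, a difference of 0.24 (SE 0.06, adjusted p = 0.0403) with 8 of 8 alcohol arrays above the isocaloric mean of their training state. Kcnma1 gave 84.7, 104 and 118 against 108, 126 and 140, a difference of -0.30 (SE 0.08, adjusted p = 0.0475) with 8 of 8 alcohol arrays below. Leaving out single arrays ended these calls for 7, 11 and 13 of the 18 arrays, with values of 0.30 to 0.38, 0.22 to 0.27 and -0.33 to -0.26. Kcna1, Kcnip2 and Kcnj11, higher than control with alcohol, differed from the isocaloric diet by 0.24 (adjusted p = 0.231), 0.24 (adjusted p = 0.0824) and 0.18 (adjusted p = 0.256), which did not pass. Both comparisons use the same alcohol arrays.

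Within one training state, 0 of the 35 channel genes passed between alcohol and isocaloric arrays. In naive rats (4 against 2 arrays), 4 of the 35 had an unadjusted p under 0.05, as did 12.4% of all probe sets, and 0.0735% of all probe sets passed after adjustment. The share of channel genes was thus near that of all probe sets. The smallest p was that of Kcnip2, at 0.37 (SE 0.12, adjusted p = 0.220). In trained rats (4 against 4 arrays), 7 of the 35 had an unadjusted p under 0.05, as did 14.7% of all probe sets, and 0.399% of all passed after adjustment. The smallest p was that of Kcnab2 at 1390674_at, at 0.34 (SE 0.08, adjusted p = 0.0662), which did not pass although the ranges of the 2 groups did not overlap. 1 channel gene passed in trained rats without control naive replicate 1, without control naive replicate 2 and without both arrays for which MAS5 is named.

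The isocaloric and control diets, which both lack alcohol, differed for 3 of the 35 channel genes (8.57%), Kcng3, Kcnq3 and Kcna1, all higher with the isocaloric diet. Over all 9520 probe sets 7.05% passed, 4.24% higher and 2.80% lower. Without Kcng3, Kcnh2 and Kcnj9, the 3 genes whose control mean lay under the filter level, 2 of 32 passed (6.25%). The median log2 difference was 0.17 over the 35 and 0.02 over all probe sets, and 26 of the 35 had a positive sign. After median centring the median of the 35 was 0.06.

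Kcng3 gave 49.5 at lowest, 67.2 at the median and 90.6 at highest on the 6 isocaloric arrays, against the 4 control signals of 20.9 to 51.2 given above. The difference was 0.90 (SE 0.19, adjusted p = 0.0116; adjusted p = 0.0254 with no filter on low values). Kcnq3 gave 107, 146 and 156, against 84.3 to 115 with control, and differed by 0.47 (SE 0.10, adjusted p = 0.0131). Kcna1 gave 265, 297 and 338, against 132 to 267, and differed by 0.58 (SE 0.14, adjusted p = 0.0188). In each of these 3 genes 6 of 6 isocaloric arrays lay above the control mean of their training state, and a single control array reached into the isocaloric range. Set beside these, the same genes differed between alcohol and control by 0.62, 0.45 and 0.83, with the same control arrays in both comparisons.

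All 3 calls were lost without control naive replicate 2, where Kcng3 differed by 0.63 (adjusted p = 0.0811), Kcnq3 by 0.42 (adjusted p = 0.0836) and Kcna1 by 0.34 (adjusted p = 0.105). Without isocaloric naive replicate 2 they were 0.82 (adjusted p = 0.0782), 0.40 (adjusted p = 0.0874) and 0.55 (adjusted p = 0.0911). The count was 12 without control naive replicate 1 and 1 without control trained replicate 2. With the actin ratio as a covariate, or without the 4 arrays highest in Ttr, it was 0. Second probe sets that passed were those of Kcnab2 (1.26, SE 0.27, adjusted p = 0.0131), Kcnip3 (0.75, SE 0.16, adjusted p = 0.0122) and Kcnip2 (0.44, SE 0.12, adjusted p = 0.0369), whose isocaloric arrays ran from 62.0 to 146, 47.6 to 85.3 and 141 to 175. Without control naive replicate 2 these were 0.98 (adjusted p = 0.113), 0.71 (adjusted p = 0.0686) and 0.29 (adjusted p = 0.268), and none passed. Without isocaloric naive replicate 2 they were 1.28 (adjusted p = 0.0666), 0.74 (adjusted p = 0.0672) and 0.46 (adjusted p = 0.114). The second probe sets of Kcnab2 and Kcnip3 carry the filter limit given above. Of the 10 genes with more than 1 tested probe set, 3 had probe sets of opposite sign in this comparison. They were Kcnab2, whose probe set of highest mean differed by -0.14 (adjusted p = 0.244), Kcng2 (-0.14 and 0.15) and Kcnj4 (-0.03 and 0.05).

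CFC training changed 0 of the 35 channel genes when averaged over the diets, where 0.0105% of all probe sets passed, and 1 of the 35 had an unadjusted p under 0.05, as did 5.95% of all probe sets. The 3 smallest p-values belonged to Kcnj6, Kcna1 and Kcng2. Kcnj6, a G-protein-gated Kir subunit, gave 262 at lowest, 297 at the median and 347 at highest on the 10 trained arrays and 133, 277 and 307 on the 8 naive arrays. Its difference, trained minus naive, was 0.27 (SE 0.10, adjusted p = 0.758). Kcna1 gave 197, 326 and 418 against 132, 281 and 337, a difference of 0.20 (SE 0.10, adjusted p = 0.833). Kcng2 gave 156, 188 and 238 against 144, 171 and 215, a difference of 0.14 (SE 0.07, adjusted p = 0.834). The trained and naive ranges overlapped widely in all 3.

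The size of the training differences rests on the control naive arrays. Without control naive replicate 1, Kcnj6 differed by 0.43 (adjusted p = 0.00337) and Kcna1 by 0.36 (adjusted p = 0.0212). Without control naive replicate 2, the lowest array for Kcna1, they were 0.10 (adjusted p = 0.757) and 0.03 (adjusted p = 0.949). In alcohol-diet rats 0 of the 35 passed and 5 had an unadjusted p under 0.05, as did 8.59% of all probe sets. In isocaloric-diet rats 0 passed and 1 had an unadjusted p under 0.05, as did 7.12% of all. After adjustment 0.0% of all probe sets passed in each diet. The smallest p was that of Kcnab2 in alcohol-diet rats (0.24, SE 0.08, adjusted p = 0.439) and that of Kcnh3 in isocaloric-diet rats (0.34, SE 0.15, adjusted p = 0.678). The difference of the training effect between the alcohol and isocaloric diets passed for 0 of the 35, with 3 at an unadjusted p under 0.05, as were 4.21% of all probe sets, and 0.0% of all probe sets passed after adjustment.

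Of the genes that work with these channels, 14 of 15 measured partners and regulators of Kv channels were tested. 0 rose and 2 fell with alcohol against control, Vapa, a membrane tether protein (-0.31, SE 0.06, adjusted p = 0.00141), and Dlg1, a scaffold (-0.19, SE 0.06, adjusted p = 0.0307). Dlg2, another scaffold of Kv1 clusters, was higher with the isocaloric diet than with control (1.01, SE 0.22, adjusted p = 0.0143), and 0 of the 14 passed between alcohol and isocaloric. Of 10 tested partners of Kir and ATP-sensitive channels, the GABA-B receptor subunit Gabbr2 and the G-protein subunit Gnao1 were higher than control with alcohol (0.47 and 0.38) and with the isocaloric diet (0.40 and 0.51). Snx27, a sorting protein known to bind G-protein-gated Kir channels, was lower with alcohol than with the isocaloric diet (-0.34, SE 0.09, adjusted p = 0.0407) and than with control (-0.29, SE 0.09, adjusted p = 0.0363). Of 7 tested potassium pumps and cotransporters, 0 passed in any of the 3 diet comparisons. The share of all probe sets that passed in each comparison is given above.

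The 38 genes under the filter were Kcna3, Kcna5, Kcna6, Kcnb2, Kcnq1, Kcnh4, Kcnh5, Kcnh6, Kcnh7, Kcnh8, Kcns1, Kcns2, Kcnv2, Kcnab3 and Kcnip1 among Kv and related genes, and Kcnn1, Kcnn3, Kcnn4 and Kcnmb1 among those of calcium-activated channels. The others were Kcnj1, Kcnj2, Kcnj5, Kcnj8, Kcnj12, Kcnj13, Kcnj14 and Kcnj15 of the inward rectifiers, Kcnk3, Kcnk4, Kcnk5, Kcnk9, Kcnk10, Kcnk12, Kcnk13 and Kcnk15 of the K2P channels, and the small membrane subunits Kcne1, Kcne2 and Kcne3. A low signal here says that the probe set was dim, not that the gene was silent. In a fit with no filter, 1 of the 38 passed between alcohol and control, where 10.5% of 15866 probe sets did. Of the 38, 0 passed between alcohol and isocaloric, where 1.36% did, and 0 between isocaloric and control, where 2.81% did. The gene that passed was Kcna6, a Kv1 pore, with mean signals of 41.3 (alcohol), 37.5 (isocaloric) and 24.8 (control) and a difference of 0.63 (SE 0.16, adjusted p = 0.0218).

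Kcne2 and Kcnj13, both known from choroid plexus epithelium, were set against transthyretin (Ttr), the major transcript of that tissue. On the 4 arrays with a Ttr signal of 5927 to 7331, Kcne2 gave 63.4 to 112, and on the other 14 arrays, with Ttr at 62.5 to 755, it gave 23.9 to 50.5. The 4 arrays were alcohol trained replicate 4, alcohol naive replicate 2, isocaloric trained replicate 3 and control trained replicate 1, so each diet held at least 1. These are signals of the Kcne2 probe set of highest mean. Of its other probe sets, both dimmer, 1386770_x_at gave 8.06 to 33.1 on the 4 arrays against 0.288 to 3.62 on the others, and 1394343_s_at did not separate them (0.986 to 8.65 against 0.495 to 10.2). Kcnj13 did not separate them, at 17.2 to 31.9 against 17.9 to 36.8. Without these 4 arrays, Kcna1, Kcnma1, Kcnq3, Kcnip2 and Kcnip3 still passed between alcohol and control.

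**Figure D4:**
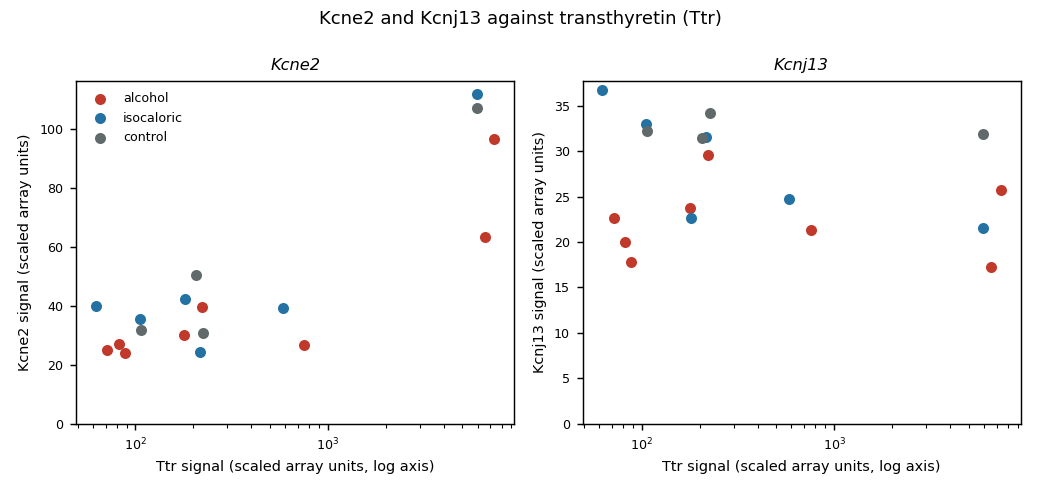
Signal of Kcne2 (left) and Kcnj13 (right) in scaled array units against the signal of Ttr on a log axis, with 1 point per array coloured by diet. The 4 arrays of high Ttr lie at 63.4 to 112 for Kcne2, above the other 14, and within the range of the others or just below it for Kcnj13.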

How the data were processed

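The authors deposited a linear intensity for each probe set on each array. Per the submitters' processing notes, 2 control-diet arrays were summarised with MAS5. How the other 16 were summarised is not stated in the labels. The mean after trimming 2% at each end was 150.03 on every array, so a change of total RNA cannot be seen. Array number limits the precision. To each intensity 6.06, the 10th percentile over all arrays, was added before taking log2, so that a change at a low level appears smaller than it was. Control probe sets, and those with a mean level under the 40th percentile, were left out, and 9520 were tested with limma 3.58.1 (lmFit on 6 group means, eBayes with trend) in R 4.3.3. Tests were two-sided with Benjamini-Hochberg adjustment over all probe sets of a comparison, at a threshold of 0.05. Diet differences were averaged over trained and naive rats with equal weight. Probe sets were named by the platform annotation, in which 12789 had 1 symbol, 312 several and 2822 none, and 73 of 73 channel symbols matched the RefSeq gene table. The fitting code was tested on simulated data.

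The members and gene lists were chosen with earlier results of these data known. Values and full statistics are given for members past the threshold in any comparison, for second probe sets past it, and, in averaged comparisons with fewer than 3 calls, for the 3 smallest p-values. Alternatives changed the added constant, filter, scaling, prior, weights, samples, replicate block, RNA-quality covariates, suspect arrays and the probe set per gene, and left out each array in turn.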

Additional observations from a re-analysis of the deposited data

Results flagged for a closer look

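4 of 105 gene and group combinations, each a channel gene in a group of 4 arrays, held an array set far apart from the other 3, where chance gives about 1 in 20. The share of the group's range taken by the gap was 0.877 for Kcna1, where alcohol naive replicate 2 gave a signal of 248 and the others 325 to 337. It was 0.880 for Kcna2, where isocaloric trained replicate 2 gave 75.2 and the others 49.5 to 52.0. It was 0.847 for Kcnj6, where isocaloric trained replicate 4 gave 295 and the others 332 to 339, and 0.884 for Kcnk2, where the same array gave 47.5 and the others 61.0 to 63.0.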

How the results depend on the processing

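Across the alternatives, none of the named differences changed direction, and of the single values 713 kept their side of the threshold, 187 lost it and 3 gained it. Of the 35 channel genes, 3 passed between alcohol and isocaloric, and this count was 1 with no filter, 6 with array weights, 0 with the replicate block, 0 with the Gapdh ratio as a covariate, 0 without the 4 arrays highest in Ttr, 0 with the mean of a gene's probe sets, and 0 to 6 when single arrays were left out. Between alcohol and control, where 11 passed, it was 7 with array weights, 6 with the replicate block, 7 when the fit held only the groups compared, 3 with the actin ratio, 5 without the Ttr arrays and 4 to 17 when single arrays were left out. Between isocaloric and control, where 3 passed, it was 0 with only the groups compared, 0 with the actin ratio, 8 without the 2 arrays with MAS5 notes, 0 without the Ttr arrays and 0 to 12 when single arrays were left out. Between alcohol and isocaloric in naive rats it was 2 with array weights in place of 0, and in trained rats 1 with array weights, 1 without the arrays with MAS5 notes and 0 to 1 when single arrays were left out. For training averaged over the diets it was 1 without the arrays with MAS5 notes and 0 to 2 when single arrays were left out. Fits without the arrays with MAS5 notes, or without 1 array of a group of 2, leave a lone array that is assumed to vary like the other groups. The cause of these changes was not tested. For the replicate block, deviations from the group means were correlated between arrays of different groups. For same-numbered arrays the correlation was -0.23 to 0.13 over 36 pairs, 4 of them over 0.1. For arrays of different number it was -0.35 to 0.35 over 96 pairs. Deviations within a group cancel out, so these values cannot settle whether the numbers pair the samples. Only the groups compared was not run for averaged training, which uses all groups.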
